A study of Mus musculus with 30 samples.

Results

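Dhx34, C5ar2, Slc1a5, Ccdc61 and Ercc2 are 5 genes on mouse chromosome 7 that had lower counts in untreated Lrrk2 knockout (KO) microglia than in wild-type (WT) microglia. They were chosen by that measured difference, a call of lower counts in KO at an adjusted p under 0.05 in untreated cultures, and because they lie within 3.20 Mb of each other. In GRCm38 (mm10) the stretch runs from 16197147 to 19395694. It holds 102 annotated genes in the deposited table, of which 79 are protein-coding and 48 passed the filter on low counts. The 5 genes are thus 5 of 48 tested genes of the stretch, and 5 of 14346 tested genes in all. All 5 passed the filter. They are not a continuous block in position, since 43 other tested genes lie among them. That 0 of these 43 were called lower in untreated KO microglia follows from the choice. Called higher were 0 of the 43 and 22 of all 14346 tested genes, and a gene not called may still differ.

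Bulk RNA sequencing was done on primary microglia, which are brain macrophages, from C57BL/6 mice labelled as postnatal day 21. WT mice were compared with Lrrk2-/- mice, which lack a kinase known as a risk gene of Parkinson's disease. Cultures were left untreated (control), treated with bacterial lipopolysaccharide (LPS), or treated with α-synuclein fibrils, a form of the protein found in Lewy bodies. The 15 KO libraries comprised 6 controls, 4 with LPS and 5 with fibrils. The 15 WT libraries comprised 5 controls, 6 with LPS and 4 with fibrils. Doses, treatment times and the Lrrk2 allele used were not given in the sources used here. Library totals of gene counts lay between 8936310 and 35677005 (median 20432234). Levels are given as CPM, counts scaled to library size with TMM factors. Lrrk2 stood at 0.731 to 4.68 CPM in the 15 KO libraries and at 6.87 to 16.7 CPM in the 15 WT libraries, so the genotypes did not overlap.

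The 5 genes serve different processes. C5ar2 encodes the second receptor for the complement fragment C5a, which binds its ligand without classical G protein signalling; C5ar1, the signalling receptor, is its neighbour. Slc1a5 encodes ASCT2, a sodium-dependent exchanger of neutral amino acids that brings glutamine into cells. Ercc2 encodes XPD, a DNA helicase of the transcription and nucleotide excision repair complex TFIIH. Dhx34 encodes an RNA helicase with a role in nonsense-mediated decay, the pathway that removes messenger RNAs with premature stop codons. Ccdc61 encodes a coiled-coil protein of the centrosome.

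Dhx34 (ENSMUSG00000006019) lies on the minus strand at 16197147 to 16222037. C5ar2 (ENSMUSG00000074361) follows after 12548 bp on the same strand, at 16234585 to 16244154, with 0 tested genes between them. Slc1a5 (ENSMUSG00000001918) is on the plus strand at 16781340 to 16798274, 537186 bp and 9 tested genes further. Ccdc61 (ENSMUSG00000074358) is on the minus strand at 18890883 to 18910415, after 2092609 bp with 13 tested genes. Ercc2 (ENSMUSG00000030400) is on the plus strand at 19382010 to 19395694, after a further 471595 bp with 21 tested genes. The genes therefore sit as a close pair, Dhx34 and C5ar2, and as 3 single genes with other tested genes around them.

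The promoter sequences are shown because the 5 genes are on both strands and have separate start sites. RefSeq windows (GRCm38.p6) were matched for Dhx34, C5ar2, Ccdc61 and Ercc2, and the 250 bases before the start site are printed from 5′ to 3′ on the gene's strand. Capitals mark matches to 8 short motifs searched on both strands. Reverse-strand matches appear as their reverse complement, which is CCGCCC for the GC box. For the other box with reverse matches it is ATTGG. Among general promoter elements the search covered the GC box with the letters GGGCGG, the element known as CCAAT box by its own letters, and the TATA box written as TATAAA. For transcription factor sites it covered an E-box spelled CACGTG and an ETS site spelled CCGGAAG. Further letters searched were GAGGAAGT for a site of the macrophage factor PU.1, TGACTCA for AP-1 proteins, and TGACGTCA for the cyclic AMP response element (CRE). No matches overlapped one another. The windows are chr7:16222033-16222282 (minus) for Dhx34, chr7:16244155-16244404 (minus) for C5ar2, chr7:18910405-18910654 (minus) for Ccdc61 and chr7:19381767-19382016 (plus) for Ercc2.
Dhx34: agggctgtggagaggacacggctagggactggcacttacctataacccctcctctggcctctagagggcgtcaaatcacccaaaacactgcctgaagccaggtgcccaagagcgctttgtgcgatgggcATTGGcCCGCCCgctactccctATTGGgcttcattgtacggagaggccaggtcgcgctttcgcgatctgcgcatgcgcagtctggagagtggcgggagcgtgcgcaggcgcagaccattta
C5ar2: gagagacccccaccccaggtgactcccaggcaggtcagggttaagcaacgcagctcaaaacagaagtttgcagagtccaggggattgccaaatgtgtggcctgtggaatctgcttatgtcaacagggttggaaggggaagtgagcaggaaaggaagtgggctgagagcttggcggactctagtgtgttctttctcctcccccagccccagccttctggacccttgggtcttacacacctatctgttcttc
Ccdc61: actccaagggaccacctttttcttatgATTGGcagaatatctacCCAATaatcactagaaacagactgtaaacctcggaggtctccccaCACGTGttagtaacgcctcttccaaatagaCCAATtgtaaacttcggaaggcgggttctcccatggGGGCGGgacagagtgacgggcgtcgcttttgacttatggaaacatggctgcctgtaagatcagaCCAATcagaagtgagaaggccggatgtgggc
Ercc2: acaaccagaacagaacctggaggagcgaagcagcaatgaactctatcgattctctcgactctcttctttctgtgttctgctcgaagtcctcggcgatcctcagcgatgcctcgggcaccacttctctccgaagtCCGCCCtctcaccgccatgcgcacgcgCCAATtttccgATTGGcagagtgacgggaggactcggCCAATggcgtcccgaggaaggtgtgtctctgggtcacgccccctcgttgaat

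Dhx34, Ccdc61 and Ercc2 each had 1 GC box match, a motif found in 32.7% of 32851 RefSeq windows of this length. CCAAT box matches numbered 2 in the Dhx34 window, 4 in that of Ccdc61 and 3 in that of Ercc2, and 33.8% of all windows held at least 1. An E-box was matched in Ccdc61 alone among the 4, against 6.02% of all windows. The C5ar2 window matched none of the 8 motifs, and the ETS (6.91% of all windows), PU.1-type (2.44%), AP-1 (4.46%), CRE (1.55%) and TATA box (12.4%) letters occurred in none of the 4. C5ar2 also stood apart by its CpG count. CpG pairs numbered 17 for Dhx34, 10 for Ccdc61 and 21 for Ercc2 but 2 for C5ar2, with a median of 6 and a range from 1 to 25 between the 10th and 90th percentiles of all windows. GC content was 60.8% for Dhx34, 55.2% for C5ar2, 49.6% for Ccdc61 and 58.0% for Ercc2, against a median of 52.4%. The 4 windows shared no motif among those searched.

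In untreated cultures, whose values chose the genes and are given as a description, C5ar2 showed the largest log2 fold change and Dhx34 the smallest. C5ar2 was at 14.2, 15.8, 9.56, 11.7 and 15.9 CPM in WT, and at 1.39 to 5.75 CPM with a median of 3.05 in KO. Dhx34 was at 19.6 to 27.1 CPM in WT and 11.1 to 17.2 CPM in KO, and Slc1a5 at 10.7 to 17.3 and 3.98 to 9.55 CPM. Ccdc61 was at 5.60 to 7.30 CPM in WT and 2.19 to 4.55 CPM in KO, and Ercc2 at 24.7 to 30.7 and 15.5 to 18.7 CPM. None of these ranges overlapped. The log2 fold changes of KO against WT ± standard error (SE) were -1.90 ± 0.35 for C5ar2, -1.08 ± 0.21 for Slc1a5, -1.04 ± 0.17 for Ccdc61, -0.75 ± 0.09 for Ercc2 and -0.64 ± 0.10 for Dhx34. Calls of this kind covered 0.167% of tested genes (24 lower). The weakest of the 5 calls was Slc1a5, with an adjusted p of 0.00917 in edgeR's quasi-likelihood test. Nearest to the threshold among genes of the same stretch that missed it were Mill2, higher in KO (1.66, adjusted p = 0.0728), the numbered gene 9330104G04Rik, lower (-1.99, 0.0884), and Ppm1n, higher (1.56, 0.235). That every KO library lay below every WT library held for 0.362% of tested genes.

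**Figure D1:**
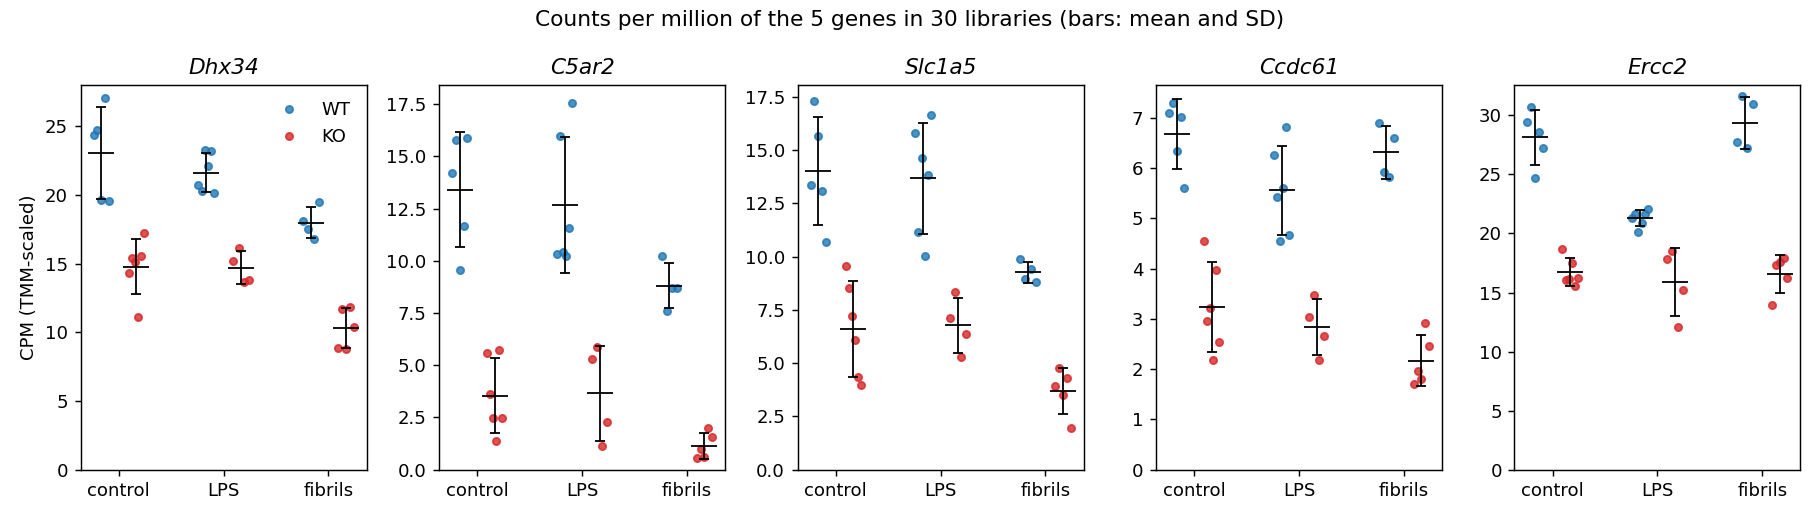
CPM (scaled with TMM factors) of each gene by treatment, with 1 point per library, WT in blue and KO in red; horizontal bars and whiskers give the mean and SD. In each panel and treatment the KO points lie below the WT points, and with fibrils the KO values of C5ar2 reach 0.535 to 1.99 CPM.

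The LPS and fibril cultures were not used to choose the genes, and all 5 were lower in KO in both. With LPS, 5 of 5 were called lower (fold differences of 1.34 to 3.52), where 1.25% of tested genes were called lower. With fibrils, 5 of 5 were called lower (1.74 to 7.79-fold), against 3.67% of tested genes. Calls in both treatments were made for 26 genes, 0.181% of those tested, and these 5 are among them. Averaged over both treatments, 5 of 5 were called lower, against 2.28% of tested genes, at log2 fold changes from -2.39 to -0.62 and with adjusted p-values from 8.05e-07 to 5.88e-05 in edgeR. Each KO library was below each WT library for all 5 genes, with LPS (5.21% of tested genes) and with fibrils (7.87%). In bulk RNA, fewer cells of a type and less RNA per cell cannot be told apart.

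C5ar2, the complement receptor, differed most as a fold change. With LPS it ranged from 10.2 to 17.6 CPM in WT (median 11.01), and stood at 5.32, 5.86, 1.15 and 2.27 CPM in KO replicates 1 to 4. The KO libraries fell into a higher and a lower pair, and all 4 were below the lowest WT library. This was a 3.52-fold lower level in KO (log2 fold change -1.81 ± 0.39, edgeR adjusted p = 0.0164). With fibrils it was at 10.2, 7.59, 8.69 and 8.72 CPM in WT and at 0.535, 1.01, 0.600, 1.99 and 1.54 CPM in KO. The highest KO value was thus well under the lowest WT value, and the difference was 7.79-fold (-2.96 ± 0.41, adjusted p = 1.32e-04). Raw counts behind these values ran from 12 to 377 per library, so the KO fibril levels rest on few reads.

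Slc1a5, the glutamine carrier, was between 10.01 and 16.6 CPM in WT with LPS (median 14.2) and at 7.13, 8.35, 5.27 and 6.35 CPM in KO. It was 2.02-fold lower in KO (95% interval of the log2 fold change -1.48 to -0.55, edgeR adjusted p = 0.0200). With fibrils the WT libraries were close together at 9.89, 8.94, 9.42 and 8.83 CPM. The KO libraries were at 3.93, 4.77, 3.499, 4.28 and 1.98 CPM, all under 5, and the gene was 2.51-fold lower (-1.81 to -0.85, adjusted p = 0.00188).

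Ercc2, which encodes a TFIIH helicase, was the most evenly expressed of the 5 in WT with LPS, from 20.1 to 22.1 CPM (median 21.5). KO libraries were at 17.8, 18.5, 12.1 and 15.2 CPM, so that the nearest ones approached the WT range without entering it. The difference, 1.34-fold, was the smallest of the 5 with LPS (-0.42 ± 0.09, edgeR adjusted p = 0.0200). With fibrils WT libraries were higher, at 27.8, 31.6, 27.2 and 30.9 CPM, while KO libraries stood at 13.97, 17.4, 17.6, 17.9 and 16.2 CPM. That was a 1.77-fold lower level (-0.82 ± 0.10, adjusted p = 1.02e-05). The KO means of Ercc2 were 16.7 ± 1.19 (SD, n = 6) in controls, 15.9 ± 2.91 (n = 4) with LPS and 16.6 ± 1.61 CPM (n = 5) with fibrils.

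Dhx34, the RNA helicase, was called in both treatments. With LPS it was at 20.2 to 23.3 CPM in WT (median 21.4) and at 15.2, 16.2, 13.6 and 13.8 CPM in KO, 1.47-fold lower (-0.56 ± 0.11, edgeR adjusted p = 0.00924). With fibrils it was at 18.1, 17.5, 16.8 and 19.5 CPM in WT and at 8.88, 11.7, 8.75, 11.9 and 10.4 CPM in KO. All 5 KO libraries were under the WT range, and the gene was 1.74-fold lower (-0.80 ± 0.11, adjusted p = 1.86e-04).

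Ccdc61, the centrosomal gene, had 22 to 239 raw counts per library. With LPS it ranged from 4.56 to 6.82 CPM in WT (median 5.52) and stood at 3.05, 3.47, 2.18 and 2.66 CPM in KO, 1.96-fold lower (-0.97 ± 0.19, edgeR adjusted p = 0.00774). With fibrils WT libraries were at 6.90, 5.92, 5.83 and 6.61 CPM and KO libraries at 1.696, 1.97, 1.80, 2.93 and 2.46 CPM. Every WT library was thus above 5 and every KO library below 3, a 2.91-fold difference (-1.54 ± 0.19, adjusted p = 2.72e-05).

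**Figure D2:**
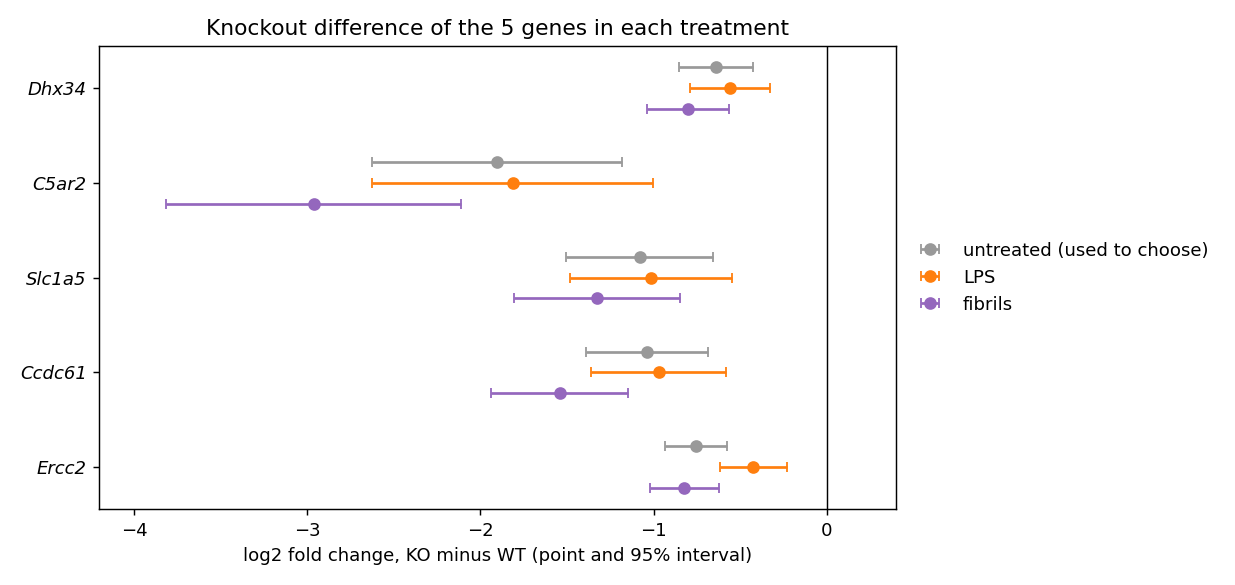
Log2 fold change of KO against WT for each gene in untreated (grey, used to choose the genes), LPS (orange) and fibril (purple) cultures; points are edgeR estimates and bars 95% intervals. All LPS and fibril intervals lie below 0, and the fibril point is the lowest of the 3 for each gene. The untreated intervals lie below 0 by the choice of the genes.

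The LPS calls depended on single libraries, and the fibril calls did not. Without KO LPS replicate 4, 0 of 5 genes were called with LPS (edgeR adjusted p = 0.0583 to 0.0965). Their log2 fold changes were then -0.53 for Dhx34, -1.64 for C5ar2, -0.98 for Slc1a5, -0.94 for Ccdc61 and -0.40 for Ercc2. Without KO LPS replicate 3, 3 were called, with Slc1a5 at 0.0529 and Ercc2 at 0.0646, and Slc1a5 was also lost without KO LPS replicate 1 (0.0670). Scaled by library size alone, 3 of 5 were called with LPS, Slc1a5 being at 0.0516 and Ercc2 at 0.0626, and Ercc2 reached 0.0513 without a filter on low counts. With fibrils, 5 of 5 were called with each of the 30 libraries left out in turn.

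Markers of other cell types were detected in differing amounts. Microglial markers summed to 4795 to 7660 CPM over all libraries, with the homeostatic genes P2ry12 (median 8.14 CPM) and Tmem119 (7.36 CPM) low among them. With fibrils this sum was 4795 to 6024 CPM in KO and 6524 to 6846 CPM in WT, and 1 of 10 microglial markers, Csf1r, was called lower in KO (-0.90). Astrocyte markers summed to 59.8 to 296 CPM in KO and 16.4 to 23.5 CPM in WT with fibrils, with 5 of 7 called higher. Fibroblast markers summed to 18.3 to 71.3 against 0.579 to 1.11 CPM, with 5 of 6 called higher. Further calls in KO with fibrils were made for 2 of 8 oligodendrocyte lineage, 2 of 3 tested neuronal and 1 of 3 tested endothelial markers, all higher, and 0 of 4 border macrophage markers. Oligodendrocyte lineage sums overlapped between genotypes, at 88.7 to 332 CPM in KO and 91.0 to 101 CPM in WT. Endothelial sums overlapped as well, at 1.84 to 5.20 CPM in KO and 3.47 to 5.37 CPM in WT. The endothelial call was Cdh5 (2.72), while Kdr (-1.19) and Pecam1 (-0.08) were lower and not called. Cldn5, an endothelial marker, was at 0 in 28 libraries, Cd163 in 24, Lyve1 in 15 and Mog in 13. Their part in the fibril difference of the 5 genes was not tested.

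With LPS, 0 of 7 astrocyte, 0 of 6 fibroblast, 0 of 8 oligodendrocyte lineage, 0 of 10 microglial and 0 of 3 neuronal and endothelial markers each were called. Sums of astrocyte and fibroblast markers overlapped between the genotypes. Astrocyte markers summed to 16.4 to 261 CPM in WT with LPS and to 37.3, 36.3, 172 and 190 CPM in KO replicates 1 to 4. Fibroblast markers summed to 0.504 to 90.4 CPM in WT and to 8.36, 4.01, 32.1 and 13.6 CPM in KO. The astrocyte sum was therefore high in the same 2 KO libraries, replicates 3 and 4, in which C5ar2, Slc1a5, Ccdc61 and Ercc2 were lowest. Dhx34 was lowest in them too, at 13.6 and 13.8 CPM. This did not recur in every group. In KO controls, replicate 1 had the highest astrocyte sum (239 CPM) and the highest Slc1a5, Ccdc61 and Ercc2 (9.55, 4.55 and 18.7 CPM). With fibrils, KO replicate 1 had the highest sum (296 CPM) and the lowest C5ar2, Ccdc61 and Ercc2 (0.535, 1.696 and 13.97 CPM). The part of astrocyte RNA in the differences of the 5 genes was not tested. The border macrophage marker Ms4a7 was called lower in KO with LPS (-0.64), 1 of 4 tested. Sums of border macrophage markers did not overlap between the genotypes, being lower in KO at 1069 to 1216 against 1251 to 1694 CPM with LPS and at 998 to 1177 against 1293 to 1329 CPM with fibrils. These sums rest mostly on Ms4a7 (median 877 CPM) and Mrc1 (450 CPM). With LPS Mrc1 was at -0.25, but F13a1 (0.97) and Ccr2 (0.20) were higher in KO, none of them called. The sums thus do not stand for border macrophages as a type. The part of these markers in the differences of the 5 genes was not tested either.

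Between the 2 stimuli, Slc1a5 and Ercc2 were called within WT and Dhx34, C5ar2 and Slc1a5 within KO. In WT cultures 37.1% of tested genes were called between fibrils and LPS. Ercc2 was higher with fibrils (0.46 ± 0.09, edgeR adjusted p = 3.45e-04) and Slc1a5 lower (-0.56 ± 0.22, 0.0484). The Slc1a5 call did not hold up: it was lost without any 1 of 17 libraries, with adjusted p-values up to 0.104. In KO cultures 26.5% of tested genes were called. Lower with fibrils were Dhx34 (-0.51 ± 0.12, edgeR adjusted p = 0.00155), C5ar2 (-1.67 ± 0.41, 0.00347) and Slc1a5 (-0.87 ± 0.23, 0.00650). Ccdc61 had values of 0.18 ± 0.18 in WT and -0.39 ± 0.19 in KO, and Ercc2 of 0.06 ± 0.10 in KO, none of them called.

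Whether the KO difference itself changed between the stimuli was tested as an interaction, for which 0 of 5 genes were called and 1.12% of tested genes were. The difference of log2 fold changes, fibrils minus LPS, was -1.15 for C5ar2 (95% interval -2.28 to -0.02, edgeR adjusted p = 0.206), -0.57 for Ccdc61 (-1.12 to -0.02, 0.193) and -0.40 for Ercc2 (-0.68 to -0.12, 0.0947). It was -0.31 for Slc1a5 (-0.97 to 0.35) and -0.24 for Dhx34 (-0.57 to 0.08). All 5 estimates were thus on the side of a larger gap with fibrils. At an unadjusted p under 0.05 stood 23.3% of all tested genes and 3 of 5 here, C5ar2 (0.0455), Ccdc61 (0.0403) and Ercc2 (0.00608), and DESeq2 and limma-voom also called 0. Without KO LPS replicate 3, Ercc2 alone was called (adjusted p = 0.0428).

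Against untreated controls, which chose the genes, the treatments are given as values only, since the comparisons share their control libraries. LPS against control gave log2 fold changes of -0.40 for Ercc2 and from -0.27 to -0.03 for the other 4 genes in WT, and from -0.20 to 0.03 in KO. Fibrils against control gave -0.36 for Dhx34, -0.61 for C5ar2, -0.60 for Slc1a5, -0.08 for Ccdc61 and 0.06 for Ercc2 in WT. The KO values were -0.52, -1.66, -0.84, -0.58 and -0.01 in the same order.

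Compared per length, as TPM (a level scaled for transcript length, here from GENCODE, and for the library), the order was Ercc2, Dhx34 and Slc1a5 from the top in all 6 groups. In WT with LPS the levels were 10.6 ± 0.763 (SD, n = 6) for Ercc2, 8.25 ± 0.691 for Dhx34, 7.41 ± 1.39 for Slc1a5, 5.25 ± 1.06 for C5ar2 and 4.11 ± 0.784 TPM for Ccdc61. Neighbours in this order overlapped, except that Ercc2 libraries (9.71 to 11.5 TPM) lay above all Dhx34 libraries (7.18 to 9.22 TPM). In KO with fibrils the order was Ercc2 at 9.43 ± 1.31 (n = 5), Dhx34 at 4.02 ± 0.441, Slc1a5 at 2.31 ± 0.679, Ccdc61 at 1.90 ± 0.677 and C5ar2 at 0.502 ± 0.261 TPM. Ercc2, Dhx34 and Slc1a5 libraries did not overlap there and Slc1a5 and Ccdc61 libraries did, while C5ar2, at most 0.838 TPM, was below every Ccdc61 library (1.32 to 2.67 TPM). In WT with fibrils the means were 13.6 for Ercc2, 6.84 for Dhx34, 5.08 for Slc1a5, 4.90 for Ccdc61 and 3.65 TPM for C5ar2. The KO LPS means in the same order were 7.59, 5.58, 3.74, 2.16 and 1.501 TPM. In controls they were 14.5, 9.72, 9.24, 6.83 and 6.21 TPM in WT and 9.71, 6.28, 4.21, 2.58 and 1.65 TPM in KO. C5ar2 therefore ranked last in 5 of 6 groups, with Ccdc61 last in WT with LPS.

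The deposited table counts transcripts, and with fibrils the leading transcript of each gene was called lower. It lists 31 transcripts of the 5 genes, of which 28 had counts and 17 were tested among 36982 transcripts. With fibrils 5 of 17 were called lower and 0 higher, against 0.224% of tested transcripts called lower. They were C5ar2-201 (72.4% of the gene's counts, log2 fold change -3.36 ± 0.51, edgeR adjusted p = 0.00122), Ccdc61-201 (78.5%, -1.59 ± 0.29, 0.0118), Dhx34-207 (59.5%, -0.87 ± 0.17, 0.0191), Ercc2-201 (86.6%, -0.83 ± 0.17, 0.0238) and Slc1a5-201 (66.2%, -1.17 ± 0.26, 0.0382). With LPS 0 of 17 were called, against 0.105% of transcripts called lower, and 14 of 17 had negative log2 fold changes in each treatment. The Dhx34 transcripts were unequal. Dhx34-201 (16.5% of counts) had log2 fold changes of -1.92 with LPS and -1.67 with fibrils, and Dhx34-204 (14.2%) had -0.20 and 0.25, none called. Slc1a5-202, a retained-intron transcript with 30.2% of the counts, was at -2.45 and -1.62, also not called. How reads that fit several transcripts of a gene were assigned is unknown here, so values of single transcripts are less certain than the sums.

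**Figure D3:**
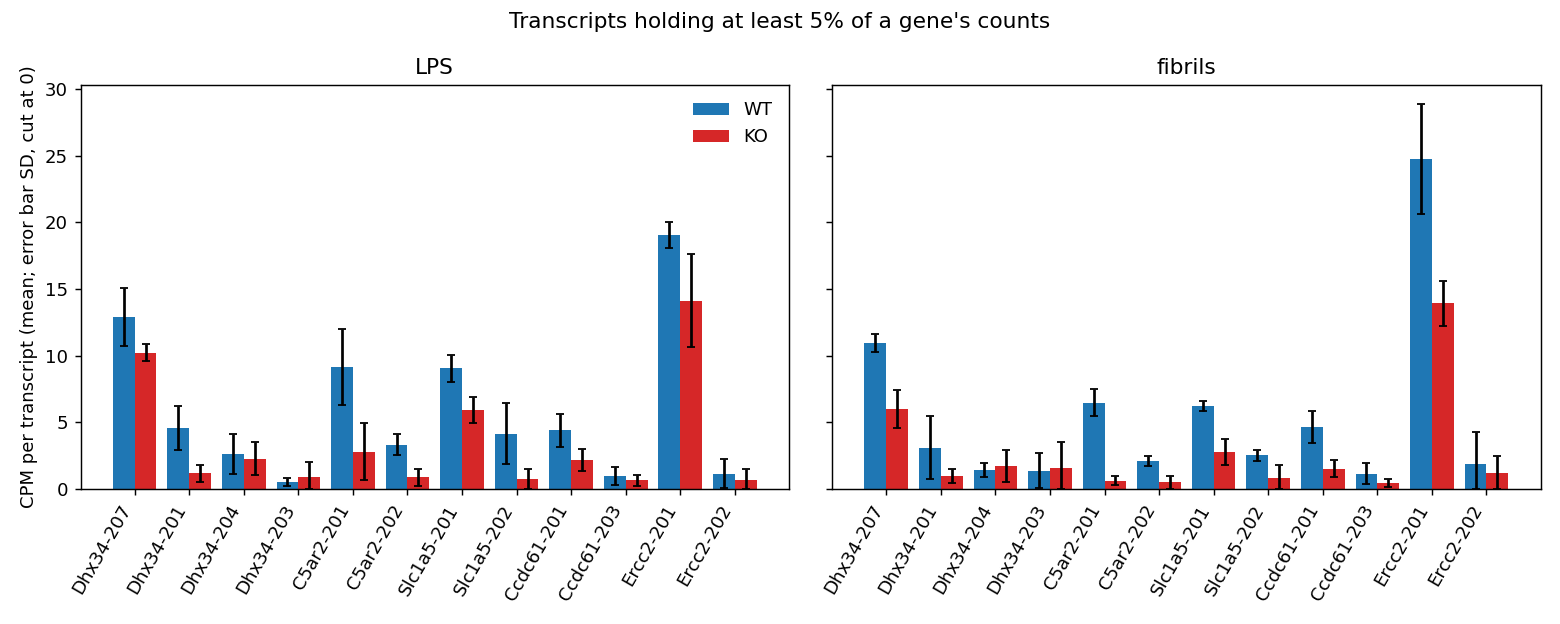
Mean CPM per transcript in WT (blue) and KO (red) with LPS (left) and fibrils (right), for transcripts with at least 5% of their gene's counts; error bars are SD, drawn no lower than 0. With fibrils the KO bar of the leading transcript is shorter for each gene, from 6.48 to 0.624 CPM for C5ar2-201 and from 24.7 to 13.9 CPM for Ercc2-201.

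Most other tested genes of the stretch were not called. With LPS 5 of 43 were called lower, beside 1.25% of all tested genes, and 0 higher, with a median log2 fold change of 0.04 against 0.02 over all tested genes. With fibrils 1 was called lower and 6 higher, where 5.27% of all tested genes were higher, with a median of 0.03 against 0.01. The LPS calls were C5ar1 (-1.13 ± 0.24, edgeR adjusted p = 0.0154), Inafm1 (-0.72), Ccdc9 (-0.49), Zc3h4 (-0.39) and Sympk (-0.51), a polyadenylation factor. Without KO LPS replicate 4 this count was 0. The fibril calls were 9330104G04Rik, lower (-2.75 ± 0.58, adjusted p = 0.00696), and Sae1 (0.37), Arhgap35 (0.65), Prkd2 (0.75), Ercc1 (0.41), Pnmal2 (4.05 ± 1.08) and Ccdc8 (4.45 ± 1.20), higher. Counts were very low for 3 of these, with means over all libraries of 0.539 CPM for 9330104G04Rik, 0.310 for Pnmal2 and 0.290 for Ccdc8.

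Next to C5ar2, at 2589 bp, C5ar1 was at 550 ± 119 CPM (SD, n = 6) in WT and 251 ± 79.6 CPM (n = 4) in KO with LPS. With fibrils it was at 323 ± 28.4 CPM (n = 4) and 226 ± 64.8 CPM (n = 5), which was not called (-0.52 ± 0.24, edgeR adjusted p = 0.186). Meis3, 10643 bp from Dhx34, had log2 fold changes of -0.16 with LPS and -0.51 with fibrils (adjusted p = 0.0558). Ap2s1, next to Slc1a5, had 0.18 with LPS and -0.19 with fibrils. Ccdc61 lay between Mill2 (0.33 and 0.50) and Nova2 (1.97 and -0.77), which had a mean of only 0.173 CPM. Ercc2 lay between Ppp1r13l (-0.99 and -0.54) and Mark4 (-0.999, adjusted p = 0.0603, and -0.65). Apart from the LPS value of C5ar1, none of these nearest neighbours was called in either treatment.

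**Figure D4:**
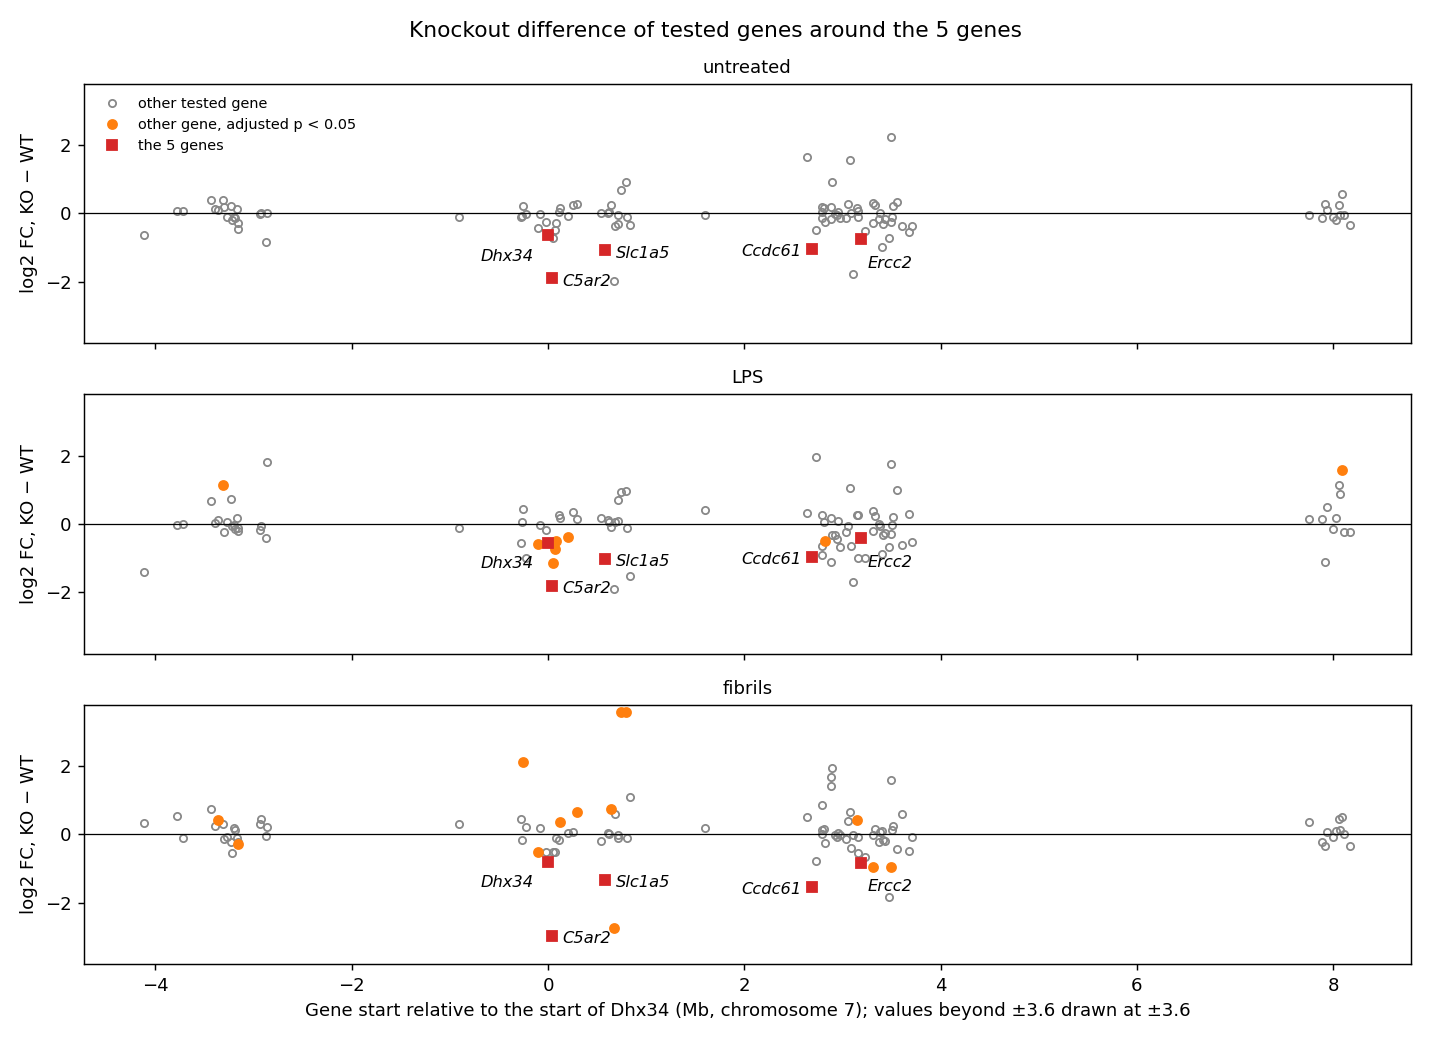
Log2 fold change of KO against WT for tested genes from 5 Mb before Dhx34 to 5 Mb after Ercc2 in untreated (top), LPS (middle) and fibril cultures (bottom), by distance from the Dhx34 start in Mb. Red squares are the 5 genes, orange points other genes called at an adjusted p under 0.05 and open points genes not called; the open points lie on both sides of 0 and the 43 among the 5 genes have medians of 0.01, 0.04 and 0.03.

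Within 5 Mb on the Dhx34 side, 0 of 28 tested genes were called in untreated cultures. There Napa was lower in KO with both LPS (-0.58) and fibrils (-0.50), Ube2m was lower with fibrils (-0.28), Zfp128 was higher with LPS (1.15), and Zfp110 (0.43) and Ehd2 (2.13) were higher with fibrils. On the Ercc2 side, 0 of 29 were called in untreated cultures, Zfp61 was higher with LPS (1.57), and Bloc1s3 (-0.96) and Apoe (-0.94) were lower with fibrils. Over the whole of chromosome 7, 9 of 1075 tested genes were called lower in untreated KO cultures, 0.837% against 0.167% of all tested genes, a share that includes the 5 chosen genes. The untreated share on chromosome 15 was 0.940% (5 of 532). Its tested genes include Lrrk2 itself, the knocked-out gene, at a log2 fold change of -2.23. With LPS, 2.79% of tested genes on chromosome 7 were called lower, against 1.25% of all tested genes. With fibrils it was 4% against 3.67%. These shares also include the 5 genes. The other 4 untreated calls on chromosome 7, named after their values were seen, were Pirb, Pira2, Eps8l1 and Smg9. With fibrils their log2 fold changes were -0.87, -1.53, -4.94 and -0.62, and with LPS -0.62, -1.29, -1.59 and -0.49, all called except that of Eps8l1 with LPS (edgeR adjusted p = 0.293).

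Genes annotated over the 5 were too low to be tested. Klc3, on the strand opposite to Ercc2 and overlapping it by 1258 bp, had 61 counts in all 30 libraries together, and the antisense gene Gm26852 had 15. Mir343 within Ercc2 and Gm26473 within C5ar2 had 0 counts. The use of strand in counting was not given in the sources used here.

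Genes that work with the 5 were read against the shares of all tested genes called, which were 1.25% lower and 0.474% higher with LPS, and 3.67% lower and 5.27% higher with fibrils. In the complement list, 1 of 19 tested genes was lower with LPS (C5ar1) and 0 were higher, and with fibrils C4b (3.75) and Serping1 (3.71), the C1 inhibitor, were higher and 0 lower. Among 22 genes of amino acid transport and glutamine use, 0 were called with LPS and 3 were higher with fibrils: Slc1a4 (1.55), the nearest relative of Slc1a5, and the glutamate carriers Slc1a2 (4.40) and Slc1a3 (4.13), which are astrocyte markers as well. Of 23 genes of nucleotide excision repair and TFIIH, Gtf2h2, another TFIIH subunit, was higher with LPS (0.68 ± 0.12, edgeR adjusted p = 0.00365) and with fibrils (0.48), Ercc1 was higher (0.41) and Xpa lower (-0.55) with fibrils. So Ercc2 and Gtf2h2, subunits of one complex, were called in opposite directions in both treatments. Of 21 nonsense-mediated decay genes, Smg9 was lower with LPS (-0.49, adjusted p = 0.00842) and fibrils (-0.62, 7.08e-04), and Upf3b was higher with fibrils (0.35). None of 23 genes of the centriole and its satellites was called, the smallest adjusted p-values being 0.0947 for Pcnt with LPS (-0.34) and 0.0628 for Ofd1 with fibrils (0.36). Median log2 fold changes of the 5 lists ran from -0.15 to 0.12 with LPS and from -0.02 to 0.17 with fibrils, beside 0.02 and 0.01 over all tested genes.

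Across the 30 libraries the 5 genes varied together, as the shared genotype difference fixes in part. Pearson correlations of log2 CPM over the 10 pairs ran from 0.665 to 0.934. After removal of the group means they ran from 0.042 for Dhx34 with Slc1a5 to 0.738 for C5ar2 with Ccdc61, over libraries that differ in depth and in cell type markers. The genes most like the mean of the 5, by Pearson correlation over 30 libraries, were Eps8l1 (0.912), Lrrk2 (0.885), Heatr5a (0.879), Irak4 (0.876), Iqgap2 (0.857) and Tmem106c (0.849). After removal of group means the value was 0.711 for Eps8l1, but -0.31 for Lrrk2 and 0.097 for Heatr5a. Irak4 (0.211), Iqgap2 (0.026) and Tmem106c (0.381) lay between. The likeness of Lrrk2, Heatr5a and Iqgap2 to the 5 genes was thus carried by the group means. By position, Irak4 (94.5 Mb) and Tmem106c (98.0 Mb) lie on chromosome 15, as does Lrrk2 (91.7 Mb). Eps8l1 lies on chromosome 7, Heatr5a on 12 and Iqgap2 on 13.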

How the data were processed

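The deposited table holds raw counts per Ensembl transcript for 30 libraries of mouse primary microglia. Per the labels' protocols, total RNA depleted of ribosomal RNA was made into stranded libraries and read as single ends. Per the submitters' processing notes, CASAVA 1.7.1, STAR 2.4.2a and mm10 were used; the counting program and its use of strand were not given in the sources used here. Counts were summed to genes with GENCODE M21 (91320 of 94647 transcripts matched; the 3327 others, 0.779% to 0.891% of counts, were left out). After edgeR's low-count filter and TMM scaling, 14346 genes were fitted with a mean per group by quasi-likelihood (edgeR 4.0.16, R 4.3.3, 24 residual degrees of freedom), and genes with a Benjamini-Hochberg adjusted p under 0.05 were called. TPM was computed from the counts and transcript lengths.

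Groups came from the labels, with replicate numbers from the titles. The labels do not say that replicates were separate cultures or animals, so p-values measure the spread between samples, which may be technical. The 5 genes, the gene lists and the marker lists were chosen with earlier results of these data known. Genes are named as: the 5 and Lrrk2; genes called within 5 Mb; nearest tested protein-coding neighbours; 3 genes just outside the threshold; up to 4 called genes per list, or the 1 with the smallest p; the 6 most alike, leaving out genes named only by number; and overlapping genes. A gene that the rule names is not reported here. Of RefSeq promoter windows, the one nearest to the GENCODE start was used. The model was tested on simulated data. Alternatives were RLE or library size scaling, other filters, DESeq2 1.42.0, limma-voom (limma 3.58.1), the compared groups alone, each library left out, the replicate number as a block, 7 libraries left out, and transcripts not summed.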

Additional observations from a re-analysis of the deposited data

How the results depend on the processing

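No gene total of the 5 changed direction in KO against WT under any alternative; among their 17 tested transcripts 14 were negative with LPS and 14 with fibrils. The number called lower with fibrils, and that averaged over both treatments, was 5 under every alternative and with each library left out. With LPS it was 3 with library size as the only scaling, 4 without a filter, and 0 for transcripts not summed, a setting chosen after seeing the data. In untreated cultures it was 2 when only the compared groups were fitted, and 3 of the 17 transcripts were called lower there. Without the 7 libraries named below, C5ar2 was not called in untreated cultures (edgeR adjusted p = 0.0618). Fibrils against LPS in WT called 1 gene with library size as the only scaling or without a filter, and 4 when only the compared groups were fitted, against 2; in KO 3 were called, or 2 under settings that lost C5ar2 (adjusted p up to 0.0611).

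The other genes of the stretch called lower with LPS numbered 5, and 2 with library size as the only scaling or without a filter, 8 with DESeq2 or with only the compared groups, and 3 with the replicate block. With fibrils they numbered 1, and 2 with the replicate block and 3 without 7 libraries that stand apart in RNA composition, depth or markers (KO control replicates 1, 4 and 6, KO fibril replicate 5, WT control replicate 6, WT LPS replicates 1 and 6). With 1 library left out at a time, the calls of the 5 genes ranged from 0 to 5 with LPS, 5 to 5 with fibrils and averaged, 1 to 3 for fibrils against LPS in WT, 3 to 3 in KO and 0 to 1 for the interaction; those of the other genes ranged from 0 to 5 with LPS (0 without KO LPS replicate 4, 2 without KO LPS replicates 1 or 2 or WT LPS replicates 3 or 6, 3 without KO LPS replicate 3, WT LPS replicate 5 or any WT fibril replicate) and 1 to 1 with fibrils.

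Correlation showed little pairing of libraries by replicate number in the median, which cannot exclude pairing of some libraries. Deviations from group means correlated with a median r of 0.054 (-0.52 to 0.653) over 64 pairs with the same number and -0.006 over 309 other pairs. With the replicate block, 5 of the 5 genes were called with LPS and 5 with fibrils, while all calls went from 248 to 125 with LPS, from 1282 to 2114 with fibrils and from 161 to 714 for the interaction.

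Counts over all tested genes moved more than those of the 5. Over the alternatives they were 17 to 152 untreated (46 in the model as described), 116 to 1097 with LPS (248), 575 to 2580 with fibrils (1282), 434 to 3287 averaged (926), 21 to 1011 for the interaction (161) and 2370 to 4434 for fibrils against LPS in KO (3805). With 1 library left out they were 26 to 58, 35 to 478, 375 to 1639, 346 to 1812 and 1 to 628 for the first 5 of these; the lowest were without KO LPS replicate 4 with LPS and averaged, and without WT fibril replicate 1 with fibrils. Scaling by library size alone shifted the median log2 fold change over all genes from 0.02 to 0.11 with LPS, 0.01 to 0.16 with fibrils and 0.00 to 0.12 averaged. The split into lower and higher calls then moved from 24 and 22 to 16 and 24 untreated, 180 and 68 to 57 and 126 with LPS, 526 and 756 to 190 and 1027 with fibrils, 327 and 599 to 133 and 1304 averaged, and 1829 and 1976 to 1448 and 2442 for fibrils against LPS in KO. RLE scaling moved that of the interaction from 69 and 92 to 48 and 108. The cause of these changes was not tested.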
